A study of Mus musculus with 6 samples.

Results

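Aminoacyl-tRNA synthetases are the enzymes that attach each amino acid to its transfer RNA, and 37 of their genes were followed in mouse lymphoma cells labelled as deleted for the miR-17~92 microRNA cluster and in cells that keep it. The family was proposed with earlier results of these data known, and its members were then taken by symbol: they are the rows of the count table whose NCBI gene number belongs to a protein-coding mouse gene with a synthetase symbol, 37 of 24885 rows. Symbols ending in 2 were taken as the mitochondrial enzymes (17 genes) and the other symbols as the cytosolic enzymes (20 genes). Gars and Kars stand among the cytosolic genes although each encodes the enzyme of both compartments. The del libraries (3) came from lymphoma cells with the Eμ-Myc transgene, Cre-ERT2+ and homozygous floxed miR-17~92 (fl/fl), in which the cluster had been deleted with 250 nM 4-hydroxytamoxifen (4-OHT) over 4 days, after which the treated cells were subcloned. The fl libraries (3) came from cells of the same genotype with the floxed cluster in place. Both groups carried the Myc transgene, which the Eμ enhancer directs to the B lineage, and the inducible Cre. Both were grown for 48 hours on irradiated Ink4a-null fibroblast feeder cells, some of whose RNA may be in the libraries. Since 4-OHT and subcloning are given for the del cells alone, their effects and that of the deletion cannot be told apart. Whether replicate libraries stand for separate cultures, clones or repeats of 1 RNA is not given, so a p-value here covers only the spread between these libraries, which may be technical.

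A synthetase first activates its amino acid with ATP and then joins it to the matching transfer RNA, which carries it to the ribosome. The cytosolic and the mitochondrial ribosomes draw on separate pools of charged transfer RNA, and most amino acids have a nuclear gene for each pool. Several cytosolic synthetases are held in a multisynthetase complex by the scaffold proteins Aimp1, Aimp2 and Eef1e1 (AIMP3). The enzymes fall into class I and class II by the fold of the catalytic domain. Many cytosolic synthetase genes are known targets of ATF4, the transcription factor of the amino acid response, and synthetase genes are also among the genes that respond to MYC.

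The microRNAs that the deletion removes are shown because their seeds, in capitals (bases 2 to 8), define the target sites that were looked for in the synthetase transcripts. They lie at chr14:115043684-115044496 on the plus strand (RefSeq, GRCm38.p6), and their mature sequences form 4 seed groups.
mmu-miR-17-5p: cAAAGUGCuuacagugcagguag
mmu-miR-20a-5p: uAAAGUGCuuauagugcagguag
mmu-miR-18a-5p: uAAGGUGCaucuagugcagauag
mmu-miR-19a-3p: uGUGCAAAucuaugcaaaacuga
mmu-miR-19b-3p: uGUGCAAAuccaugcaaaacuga
mmu-miR-92a-3p: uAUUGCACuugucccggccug
Seed matches were sought on the transcript strand in the longest annotated 3′ UTR of any transcript of each gene (GENCODE, GRCm38). Transcripts whose reading frame stops early were not left out, so some of these UTRs may hold sequence that is coding in another transcript. For Tars the UTR searched had 3674 bases, while the longest transcript had 4093, and for Qars 2074 and 3066. The shares below count matches in such stretches too. The site of miR-17-5p and miR-20a-5p (GCACTTT) was in 3 of 37 synthetase genes (8.11%), against 15.3% of 9860 tested genes with a UTR. The site of miR-18a-5p (GCACCTT) was in 4 (10.8%, against 10.3%), that of miR-19a-3p and miR-19b-3p (TTTGCAC) in 5 (13.5%, against 14.1%), and that of miR-92a-3p (GTGCAAT) in 1, Aars (2.70%, against 7.98%). Wars2, the mitochondrial tryptophan enzyme, held a site of 3 groups, with those of miR-18a-5p and miR-19 overlapping in GCAC. Tars2 and Mars2, the mitochondrial threonine and methionine enzymes, each held a site of 2, and Tars held several matches to the miR-19 site. The miR-17-5p and miR-20a-5p sites of Wars2 and Tars2 are shown with 11 bases on either side, because Wars2 rose and Tars2 fell in del.
Wars2: actgtgcaggtGCACTTTgtctgtgttgt
Tars2: tggttttctaaGCACTTTacattccatga
Of the 9 synthetase genes with at least 1 site, 1 was higher in del, 4 were lower and 4 were not called, with a median log2 fold change of -0.38. Of the 28 with no site, 3 were higher, 16 lower and 9 not called, with a median of -0.50. Over all tested genes, with or without a site, 32.6% were lower in del and 32.5% higher. The annotated UTR need not be the one these cells use, and a match is not evidence of a functional site.

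The libraries held 2121796 to 3738720 counts in del and 6554423 to 9580630 in fl, so depth and group go together, and 1 principal component carried 89.5% of the variance and separated the groups. Levels are given as CPM, each count relative to its library's TMM-scaled total. Each transcript is counted near its 3′ end, so the CPM were not divided by length. Mir17hg, which hosts the cluster, was at 167, 152 and 206 CPM in del and 252, 263 and 262 CPM in fl (log2 fold change -0.56 ± 0.15, adjusted p = 0.00844), but its 3′ tag lies past the microRNAs and does not check the deletion. Myc was at 423 ± 28.2 CPM in del and 468 ± 59.9 CPM in fl (SD, n = 3 each, adjusted p = 0.399). The labelled cell type was checked against 13 B cell markers, which summed to 1305 to 1492 CPM in del and only 51.7 to 59.9 CPM in fl, where all 11 tested markers were lower than in del. Of the other lists, 12 myeloid markers summed to 1951 to 2031 CPM in del and 429 to 476 CPM in fl (6 of 8 tested higher and 2 lower, Mpo and S100a9 at 0 in every library), and 6 epithelial markers to 0.474 to 1.32 CPM in del and 371 to 411 CPM in fl (3 of 3 tested lower, Krt8, Cdh1 and Cldn4 at 0 in del, Cdh1 at 0 in fl). The 12 fibroblast markers summed to 13.7 to 33.2 CPM in del and 2.06 to 8.21 CPM in fl (2 of 3 tested higher, Lum, Pdgfra and Postn at 0 in del, Lum and Thy1 at 0 in fl). The 10 T and NK cell markers summed to 99.0 to 120.1 CPM in del and 38.5 to 42.7 CPM in fl (1 of 3 tested higher and 2 lower, Cd3e, Cd8a, Nkg7 and Gzmb at 0 in every library). Most of that del sum was Cd2, at 115, 95.2 and 104 CPM in del libraries 1 to 3, while Cd5 and Lck were lower in del. Most of the myeloid sum in fl was Fcer1g, at 371, 380 and 422 CPM in fl libraries 1 to 3. The 5 erythroid markers summed to under 1 CPM in every library. The synthetase results below therefore compare libraries that also differ in depth and in markers of several cell types, and the part of either in these results was not tested.

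Synthetase transcripts were mostly lower in del, by modest amounts. Of the 37 genes, all of which had enough counts to be tested, 20 fell and 4 rose (edgeR's quasi-likelihood test, Benjamini-Hochberg adjusted p under 0.05 over 10260 genes), and 13 were not called. These 24 genes are 64.9% of the synthetases, while 65.1% of all tested genes passed the same threshold, so the share called is that of the background. The direction was less even: 54.1% of the synthetases were lower in del, against 32.6% of all genes, and 10.8% were higher, against 32.5% of all genes. The median log2 fold change was -0.46, against -0.003 over all genes. The changes were small beside those of other genes, since 2 synthetases (5.41%), Nars2 and Yars2, were called with a change of at least 2-fold, both lower, against 37.3% of all genes tested in either direction (15.9% lower and 21.4% higher). The del and fl values did not overlap for 25 synthetases, while 69.9% of all genes showed no overlap. The del values were lower for 21 synthetases, against 35.7% of all genes, and higher for 4, against 34.2%.

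**Figure D1:**
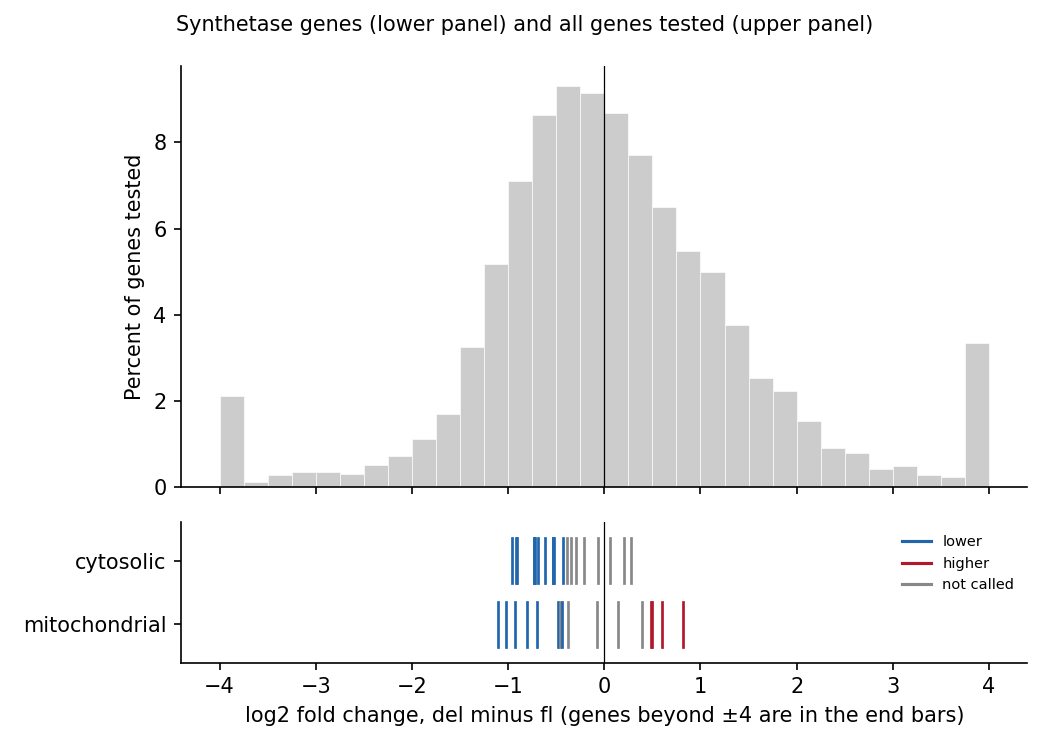
The upper panel gives the percent of the 10260 tested genes by log2 fold change (del minus fl), with values beyond the axis in the end bars, and the lower panel marks cytosolic and mitochondrial synthetase genes, coloured by call. The synthetases span -1.11 to 0.82, and 13.4% of all genes lie at or below their lowest value and 25.6% at or above their highest.

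The cytosolic enzymes were lower or not called. Of 20 genes, 12 fell and 0 rose, with a median log2 fold change of -0.52 and a range of -0.96 to 0.28. Without Gars and Kars, which serve both compartments, 10 of 18 fell, with a median of -0.47. Of the 17 mitochondrial enzymes 8 fell (47.1%) and 4 rose (23.5%), with a median of -0.44 and a range of -1.11 to 0.82. The share that fell was 60% over the cytosolic genes, against 32.6% of all genes tested. The 4 genes that rose were thus all mitochondrial, but their share lay below the 32.5% of all genes that rose. The difference between the compartments was not tested. Without del replicate 3, 5 mitochondrial genes fell and 2 rose. Without fl replicate 2, and without fl replicate 3, 2 also rose. Without fl replicate 1, 1 cytosolic gene rose (Sars, below).

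**Figure D2:**
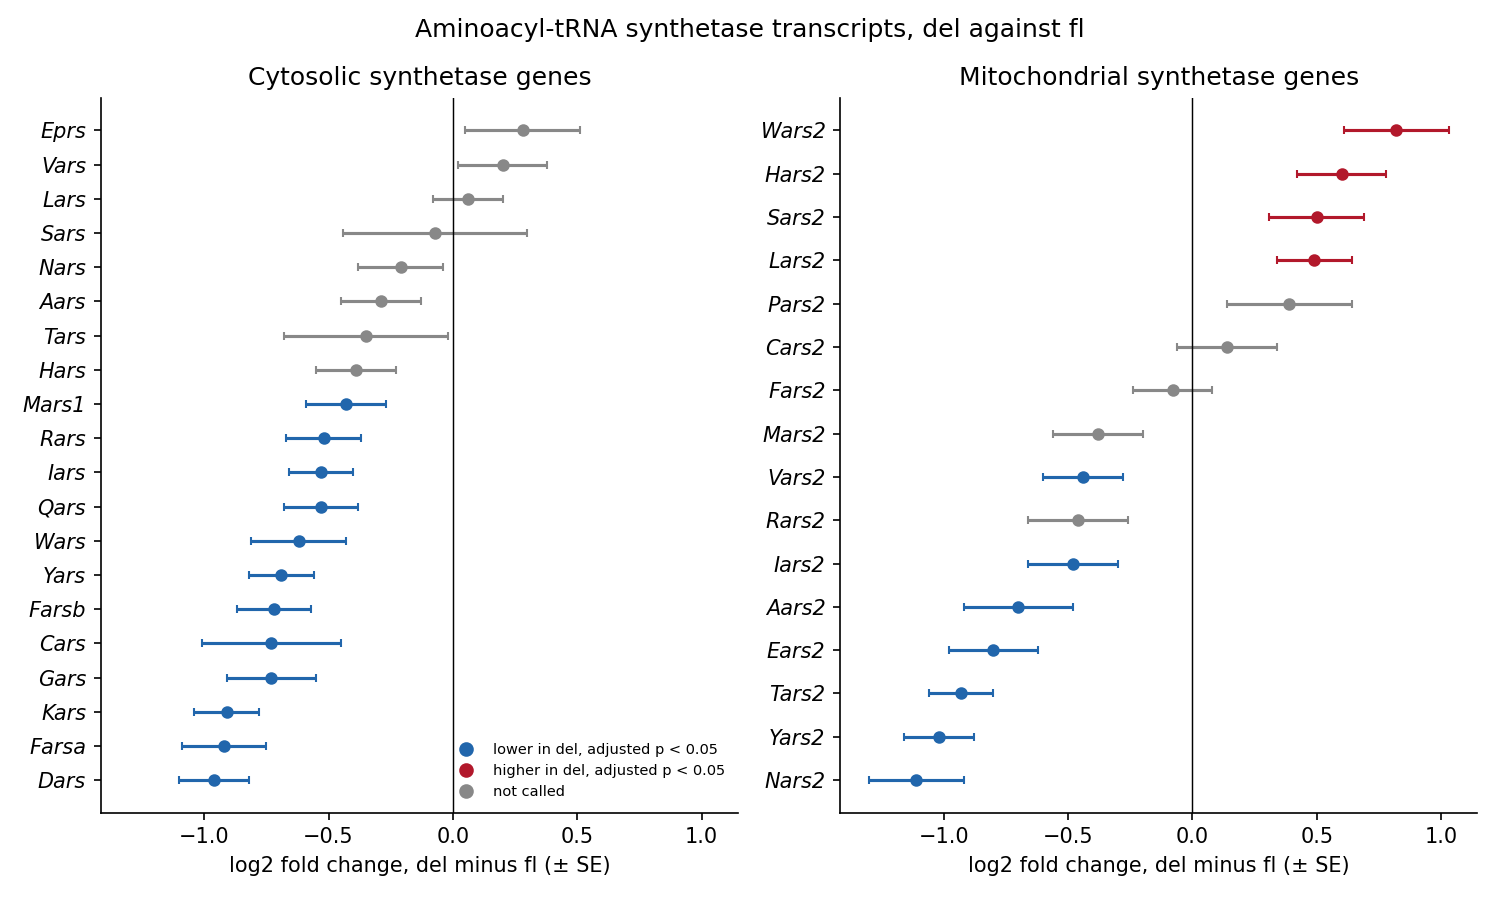
Log2 fold change (del minus fl) with its standard error for cytosolic (left) and mitochondrial (right) synthetase genes, ordered by size, with colour for the call at an adjusted p of 0.05. The called cytosolic genes are all lower in del, from Mars1 at -0.43 to Dars at -0.96, while the called mitochondrial genes run from Nars2 at -1.11 to Wars2 at 0.82.

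Among the cytosolic enzymes the lowest fold change was that of Dars (gene number 226414, chr1:128363707-128417416, GRCm38), which charges aspartate and belongs to the multisynthetase complex. It was at 126, 104 and 111 CPM in del libraries 1 to 3 and at 214, 205 and 243 CPM in fl libraries 1 to 3. Every del library was lower than every fl library (log2 fold change -0.96 ± 0.14, adjusted p = 0.000295). Kars (chr8:111993439-112011354), the lysine enzyme of both compartments, a member of the complex, was at 124, 109.9 and 118 CPM in del and 207, 218 and 234 CPM in fl, with no overlap (log2 fold change -0.91 ± 0.13, adjusted p = 0.000254). Gars, the glycine enzyme of both compartments, was at 95.9, 85.3 and 63.5 CPM in del and 135, 117 and 154 CPM in fl (log2 fold change -0.73 ± 0.18, adjusted p = 0.00595). Both genes that supply cytosol and mitochondria alike were thus lower in every del library.

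Phenylalanine is charged by an enzyme of paired alpha and beta subunits, from Farsa and Farsb, and both fell. Farsa was at 41.6, 58.7 and 44.3 CPM in del and 81.6, 85.7 and 105 CPM in fl, and Farsb at 99.0, 119 and 101 CPM in del and 156, 168 and 201 CPM in fl. Neither showed any overlap between the groups (log2 fold change -0.92 ± 0.17 for Farsa, adjusted p = 0.00123, and -0.72 ± 0.15 for Farsb, adjusted p = 0.00241). Yars, the tyrosine enzyme, was at 34.2, 29.8 and 29.5 CPM in del, against near-constant values of 50.1, 50.5 and 50.4 CPM in fl (log2 fold change -0.69 ± 0.13, adjusted p = 0.00134). Wars, the tryptophan enzyme, was at 30.8, 21.8 and 19.7 CPM in del and 34.4, 41.4 and 36.4 CPM in fl. All 3 del values of Wars were lower than the fl values (log2 fold change -0.62 ± 0.19, adjusted p = 0.0150), and the gene missed the threshold without del replicate 3 (adjusted p = 0.0556) or fl replicate 2 (0.0539). Cars, the cysteine enzyme, was at 54.8, 63.0 and 47.8 CPM in del and 135, 77.1 and 61.6 CPM in fl. Its groups overlapped, since fl replicate 3 lay below del replicate 2 (log2 fold change -0.73 ± 0.28, adjusted p = 0.0431). The call depended on the libraries used: the value was -0.34 without fl replicate 1 (adjusted p = 0.118), and the call was also lost without any 1 of the del libraries (adjusted p 0.0636 to 0.148).

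The multisynthetase complex holds 8 of these enzyme genes, and 6 of them fell (75%) while Eprs and Lars were not called. Of the 12 other cytosolic genes 6 fell (50%), and over all genes tested 32.6% did. The median log2 fold change was -0.52 over the 8 and -0.51 over the 12. The difference between the 2 sets was not tested. Beside Dars and Kars, the isoleucine enzyme Iars was at 64.0, 53.5 and 61.1 CPM in del and 86.2, 90.4 and 82.3 CPM in fl (log2 fold change -0.53 ± 0.13, adjusted p = 0.00584). Qars, the glutamine enzyme, was at 80.9, 68.7 and 95.4 CPM in del and 115, 119 and 121 CPM in fl (log2 fold change -0.53 ± 0.15, adjusted p = 0.0116). For Iars and Qars alike the groups were separate. Rars, the arginine enzyme, was at 123, 106 and 144 CPM in del and 169, 173 and 193 CPM in fl (log2 fold change -0.52 ± 0.15, adjusted p = 0.0132), a call lost without fl replicate 3 (adjusted p = 0.0504). Mars1, the methionine enzyme, was at 79.0, 62.1 and 66.0 CPM in del and 105, 93.8 and 79.9 CPM in fl. Its groups were only just apart (log2 fold change -0.43 ± 0.16, adjusted p = 0.0376), and the call was lost without del replicate 2, del replicate 3, fl replicate 1 or fl replicate 2 (adjusted p 0.0860 to 0.110). Lars, the leucine enzyme, was at 116, 129 and 129.8 CPM in del and 108, 122 and 130.5 CPM in fl, values that overlapped (log2 fold change 0.06 ± 0.14, adjusted p = 0.736).

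Eprs, whose protein carries the glutamate and the proline activity on 1 chain, had the most reads of the synthetases. It was at 727, 697 and 1076 CPM in del and 696, 851 and 517 CPM in fl, and the groups overlapped (log2 fold change 0.28 ± 0.23, adjusted p = 0.303). Sars, the serine enzyme, and Nars, the asparagine enzyme, came next in reads. Sars was at 404, 407 and 285 CPM in del and 653, 272 and 226 CPM in fl, a 2.88-fold range within fl that came from fl replicate 1 (log2 fold change -0.07 ± 0.37, adjusted p = 0.874). Without that library its log2 fold change was 0.54 (adjusted p = 0.0349), so the value turned with 1 library. Nars was at 282, 246 and 301 CPM in del and 395, 286 and 282 CPM in fl, overlapping (log2 fold change -0.21 ± 0.17, adjusted p = 0.299).

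The remaining uncalled cytosolic genes were Aars, Hars, Tars and Vars. Tars, the threonine enzyme, was at 90.9, 70.1 and 190.0 CPM in del and 175, 131 and 144 CPM in fl (log2 fold change -0.35 ± 0.33, adjusted p = 0.365). Del replicate 3 held the highest value of all 6 libraries, and without it the log2 fold change was -0.89 (adjusted p = 0.0034). Hars, the histidine enzyme, was at 145, 159 and 172 CPM in del and 206, 245 and 173 CPM in fl, just apart but short of the threshold (log2 fold change -0.39 ± 0.16, adjusted p = 0.0561). It was called lower without fl replicate 3 (-0.51, adjusted p = 0.0278), with upper-quartile factors (-0.52, 0.0154) and with no count filter (-0.44, 0.0364). Aars, the alanine enzyme, was at 59.0, 48.3 and 51.1 CPM in del and 54.1, 65.7 and 74.0 CPM in fl (log2 fold change -0.29 ± 0.16, adjusted p = 0.139). Vars, the valine enzyme, was at 188, 138 and 224 CPM in del and 165, 154 and 161 CPM in fl (log2 fold change 0.20 ± 0.18, adjusted p = 0.350). The groups overlapped for Aars, Tars and Vars.

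**Figure D3:**
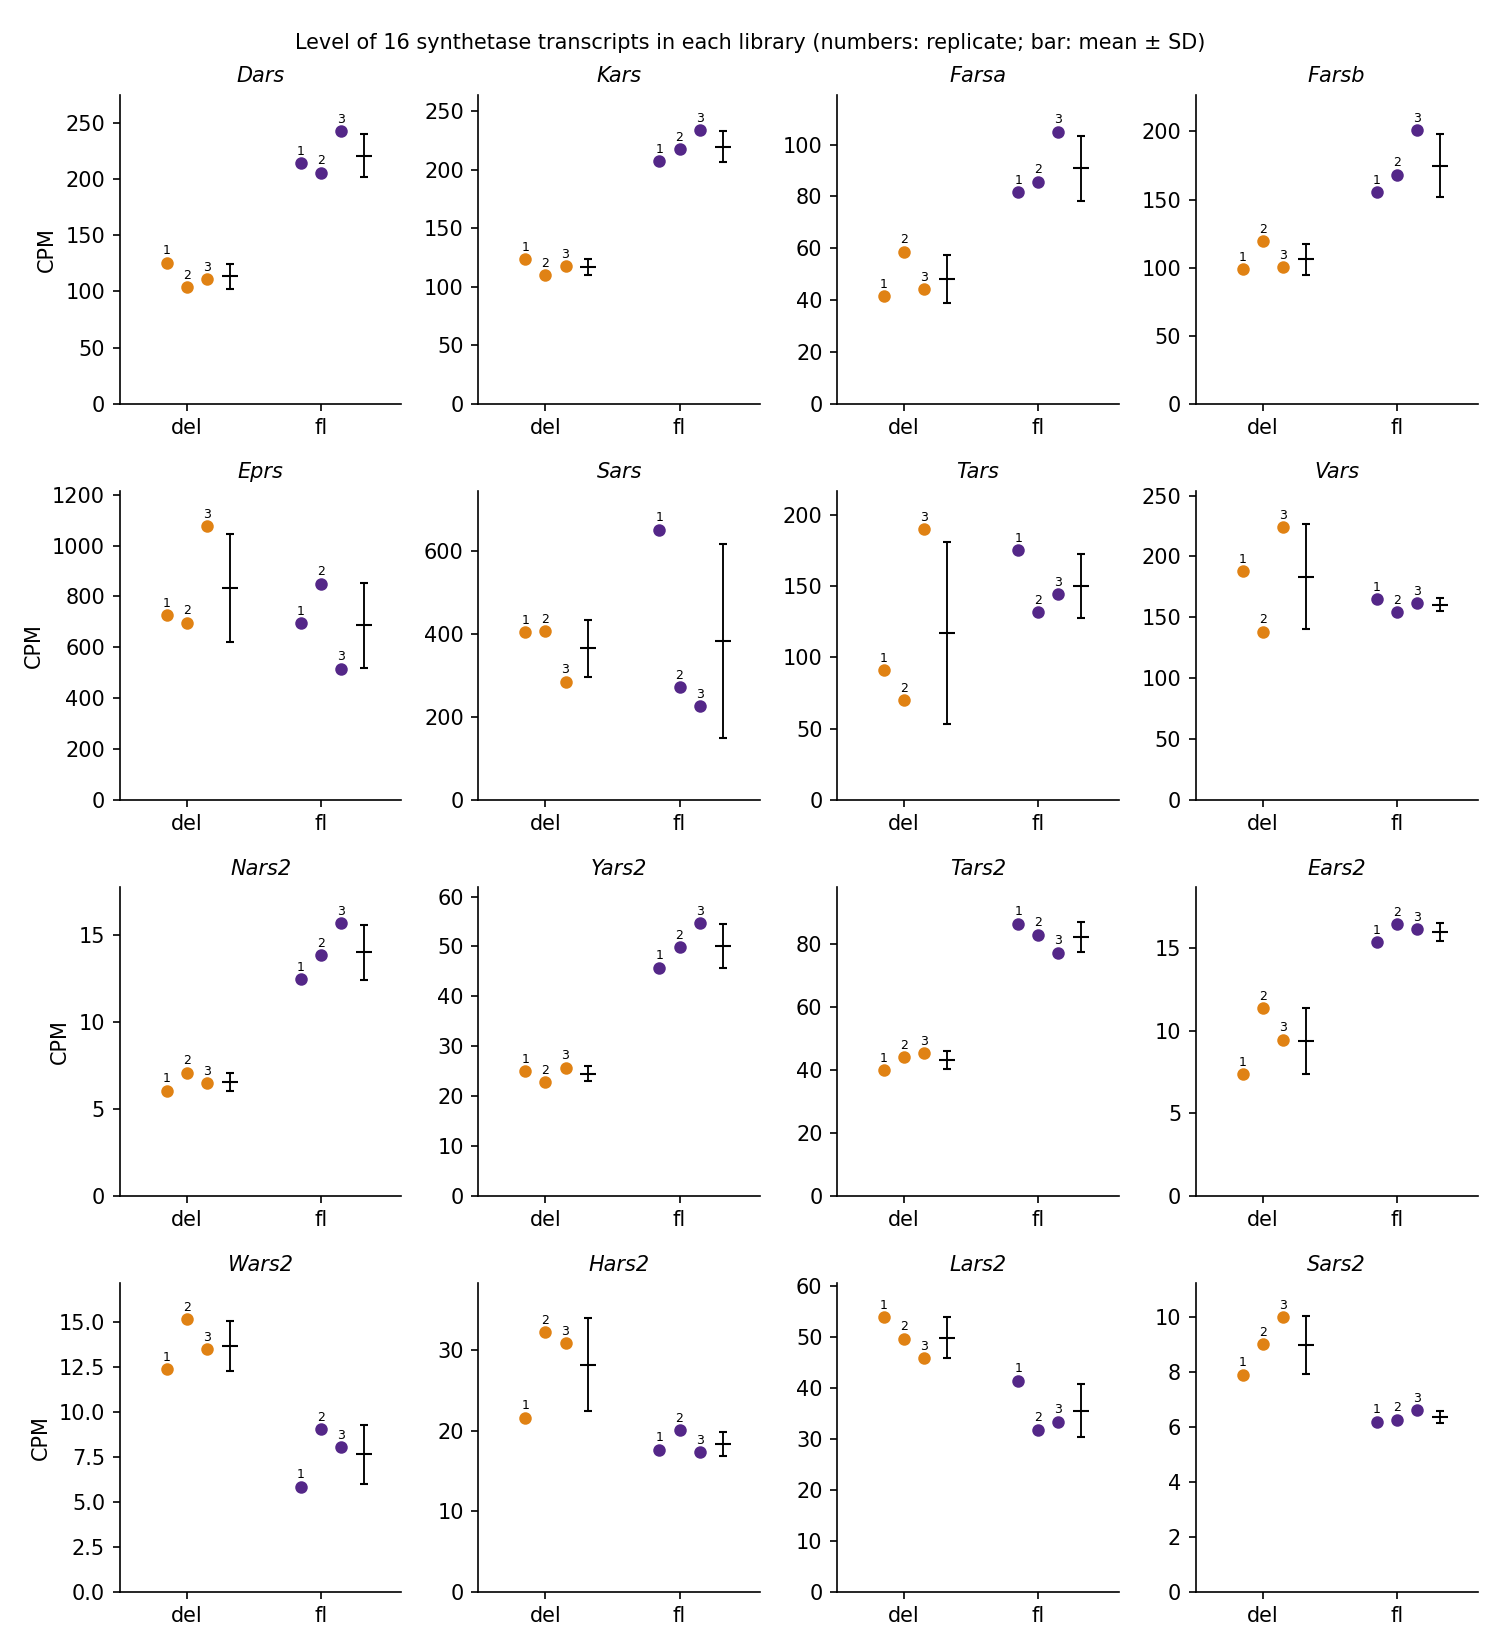
Level in each library (CPM, linear axes from 0) of synthetase genes with large changes or wide spread, with numbered replicate points, del left of fl, and a bar at the mean ± SD (n = 3 each). The groups are apart for Dars, Kars, Farsa, Farsb and all 8 mitochondrial genes shown, and Sars in fl (2.88-fold) and Tars in del (2.71-fold) spread most within a group.

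The mitochondrial enzymes showed the lowest and the highest fold changes of the family. Nars2 (chr7:96950839-97064758), which charges mitochondrial asparagine transfer RNA, was at 6.06, 7.11 and 6.49 CPM in del and 12.5, 13.9 and 15.7 CPM in fl. Its del values were near one another and well under the fl values (log2 fold change -1.11 ± 0.19, adjusted p = 0.000661), and the fl level was 2.15 times the del level. Yars2, the mitochondrial tyrosine enzyme, was at 25.0, 22.7 and 25.7 CPM in del and 45.7, 49.8 and 54.7 CPM in fl, with no overlap (log2 fold change -1.02 ± 0.14, adjusted p = 0.000192). Tars2 was at 40.0, 44.1 and 45.4 CPM in del and 86.6, 83.1 and 77.4 CPM in fl (log2 fold change -0.93 ± 0.13, adjusted p = 0.000207). Ears2, which charges both glutamate and, before amidation, glutamine transfer RNA in mitochondria, was at 7.37, 11.4 and 9.46 CPM in del and 15.4, 16.4 and 16.1 CPM in fl (log2 fold change -0.80 ± 0.18, adjusted p = 0.00373). Each of these 4 genes was lower in every del library than in any fl library, and each was called lower in every one of the 14 alternative analyses that tested it.

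Aars2, Iars2 and Vars2 also fell. Aars2, for alanine, was at 7.11, 8.05 and 4.87 CPM in del and 11.2, 9.74 and 10.8 CPM in fl (log2 fold change -0.70 ± 0.22, adjusted p = 0.0171), which missed the threshold without del replicate 3 (-0.50, adjusted p = 0.0779). Iars2, for isoleucine, was the mitochondrial gene with the most reads, at 137, 162 and 104 CPM in del and 209, 170.4 and 184 CPM in fl (log2 fold change -0.48 ± 0.18, adjusted p = 0.0384). Vars2, for valine, was at 18.2, 16.1 and 13.5 CPM in del and 22.2, 20.1 and 22.7 CPM in fl (log2 fold change -0.44 ± 0.16, adjusted p = 0.0327). The calls of Iars2 and Vars2 were near the threshold, and each was lost in 4 of the 6 analyses that left out 1 library (adjusted p 0.0653 to 0.103 for Iars2 and 0.0629 to 0.129 for Vars2). Iars2 also lost its call in thinned libraries (0.0644), and Vars2 with the DESeq2 Wald test (0.0839), in thinned libraries (0.0657) and with the replicate block (0.0514).

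Wars2 (chr3:99140107-99221230), Hars2, Sars2 and Lars2 rose. Wars2, for tryptophan, was at 12.4, 15.2 and 13.5 CPM in del and 5.85, 9.06 and 8.06 CPM in fl. The highest fl value lay under the lowest del value (log2 fold change 0.82 ± 0.21, adjusted p = 0.00692). Hars2, for histidine, was at 21.6, 32.2 and 30.8 CPM in del and 17.7, 20.0 and 17.3 CPM in fl, with no overlap (log2 fold change 0.60 ± 0.18, adjusted p = 0.0138), and without del replicate 3 (adjusted p = 0.0516) or in thinned libraries (0.256) it missed the threshold. Lars2, for leucine, was at 54.0, 49.7 and 46.0 CPM in del and 41.5, 31.9 and 33.4 CPM in fl (log2 fold change 0.49 ± 0.15, adjusted p = 0.0183). Its groups were apart, and it missed the threshold without del replicate 1 (adjusted p = 0.0674), fl replicate 2 (0.0676) or fl replicate 3 (0.0546), or with upper-quartile factors (0.0566). Sars2, for serine, was at 7.90, 9.001 and 10.0 CPM in del and 6.19, 6.27 and 6.60 CPM in fl (log2 fold change 0.50 ± 0.19, adjusted p = 0.0416). That call was lost in 10 of the 13 alternative analyses that tested it, more than any other rise: without del replicate 2, del replicate 3 or any 1 fl library (adjusted p 0.0703 to 0.158), with upper-quartile factors (0.129), the DESeq2 Wald test (0.151), no count filter (0.104), thinned libraries (0.106) or the replicate block (0.0851).

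Cars2, Fars2, Mars2, Pars2 and Rars2 were not called. Pars2, for proline, had the fewest reads, at 4.48, 3.79 and 5.95 CPM in del and 3.67, 4.03 and 3.37 CPM in fl, with as few as 8 counts in a del library (log2 fold change 0.39 ± 0.25, adjusted p = 0.202). Rars2, for arginine, was at 35.8, 29.4 and 20.3 CPM in del and 37.3, 40.6 and 39.1 CPM in fl, with no overlap but short of the threshold (log2 fold change -0.46 ± 0.20, adjusted p = 0.0662). It was called lower without del replicate 1 (-0.68, adjusted p = 0.0158). Mars2, for methionine, was at 24.2, 31.3 and 20.0 CPM in del and 31.2, 29.7 and 36.1 CPM in fl (log2 fold change -0.38 ± 0.18, adjusted p = 0.0884) and was called lower without del replicate 2 (-0.54, adjusted p = 0.0260), with upper-quartile factors (-0.51, 0.0345) and with the dependence on length and GC content removed, described below (-1.63, 6.65e-05). Fars2, for phenylalanine, was at 12.4 ± 0.300 CPM in del and 13.1 ± 1.26 CPM in fl, and Cars2, for cysteine, at 11.1 ± 2.46 CPM in del and 9.89 ± 0.970 CPM in fl (SD, n = 3 each), both with overlapping groups.

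Set side by side by amino acid, tryptophan was the pair with opposite calls, since Wars fell and Wars2 rose. There were 18 such pairs, with Eprs set against both Ears2 and Pars2, and Fars2 against both Farsa and Farsb. Both genes fell in 3 pairs, among them those for isoleucine and tyrosine. In 5 pairs the cytosolic gene was called lower and its partner was not called (Cars, Farsa, Farsb, Mars1 and Rars), and in 5 the reverse held (Aars2, Ears2, Nars2, Tars2 and Vars2). A call for 1 gene of a pair does not show that the genes differed: the log2 fold changes were -0.43 for Mars1 and -0.38 for Mars2, and -0.52 for Rars and -0.46 for Rars2. In 3 pairs the mitochondrial gene rose and the cytosolic gene was not called (histidine, leucine and serine), and in Eprs with Pars2 neither was called.

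For each pair the log2 ratio of the cytosolic to the mitochondrial CPM (with 1 CPM added to each) was compared between groups. That ratio for Wars over Wars2 was 1.25, 0.50 and 0.51 in del and 2.37, 2.07 and 2.04 in fl, and no values overlapped. The difference of the fitted log2 fold changes was -1.44. The ratio did not overlap between groups in 8 of the 18 pairs. Among single genes, 69.9% of all tested showed no overlap, and the share for ratios of other gene pairs was not computed. The count of 8 is therefore no result about the compartments. The ratio was lower in del for Farsa, Farsb, Hars and Wars over their mitochondrial partners. It was higher in del for Eprs over Ears2, Nars over Nars2, Vars over Vars2 and Yars over Yars2. A two-sided exact permutation test of 3 against 3 libraries cannot go below p = 0.1, which these 8 pairs reached (0.225 after adjustment over the 18 pairs), so no pair passed a threshold.

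**Figure D4:**
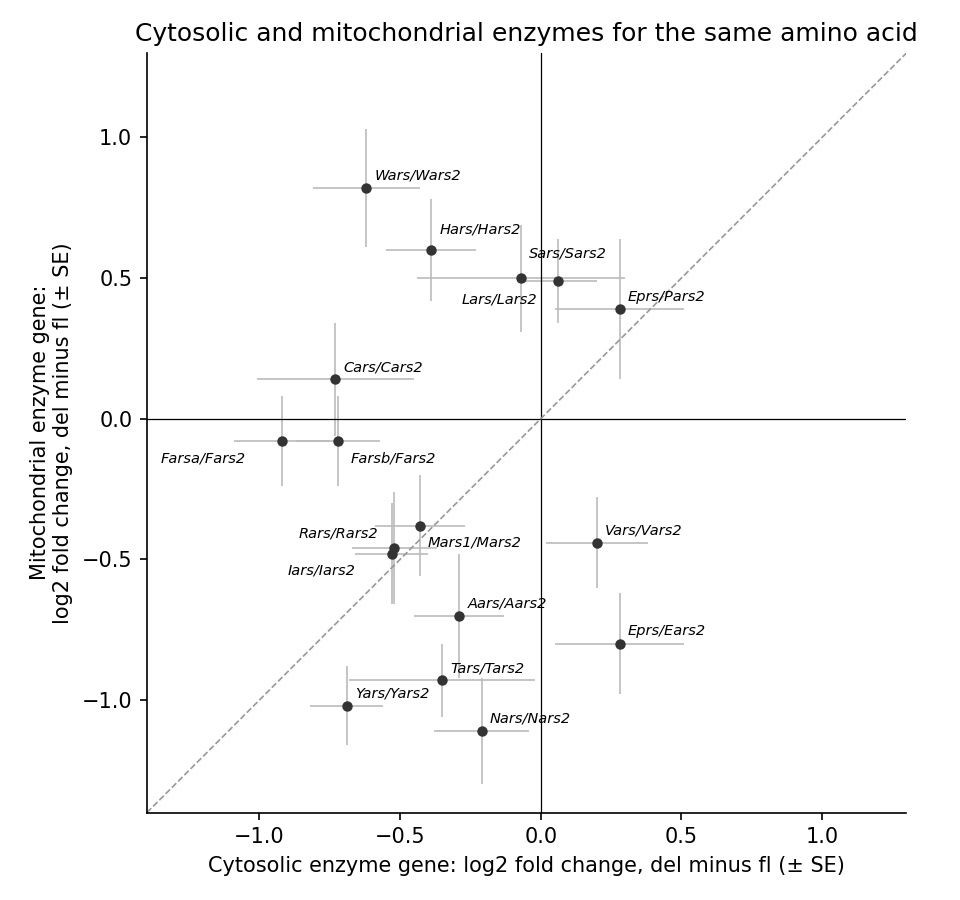
Log2 fold change (del minus fl, with standard errors) of the cytosolic gene on the horizontal axis against that of the mitochondrial gene for the same amino acid on the vertical axis, 1 point per pair drawn. Wars with Wars2 lies far from the dashed line of equality at -0.62 and 0.82, while Iars with Iars2 lies near it at -0.53 and -0.48.

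Summed over genes, the cytosolic synthetases came to 2965, 2776 and 3329 CPM in del and 3941, 3568 and 3268 CPM in fl. These sums overlapped, and Eprs and Sars, which varied within their groups, weigh heavily in them. The mitochondrial synthetases came to 452, 495 and 400 CPM in del and 606, 570.02 and 590 CPM in fl, and here every del sum was lower. The mitochondrial genes made up 13.0 ± 2.21% of the summed CPM in del and 14.1 ± 1.03% in fl (SD, n = 3 each), with overlapping values. In bulk libraries a smaller number of cells expressing a gene and less RNA per cell cannot be told apart.

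The spread between libraries of a group was wider in del over the synthetases than over all genes of at least their median level, and narrower in fl. Synthetases below that level are in the first set, while the second holds no gene below it, so the sets are not matched in level. Neither difference was tested. The highest over the lowest library had a median ratio of 1.34 over the synthetases in del, against 1.26 over the 2831 genes of that level or more and 1.36 over all genes tested. In fl it was 1.20, against 1.22 and 1.26. More than 1.5-fold spread was seen for 13 synthetases in del (35.1%, against 20.6% of the 2831 genes) and for 4 in fl (Cars, Eprs, Sars and Wars2, 10.8%, against 21.1%). By enzyme class, 11 of 18 class I genes fell and 2 rose (median log2 fold change -0.47), and 9 of 18 class II genes fell and 2 rose (median -0.53). Over all genes tested, 32.6% fell and 32.5% rose. Eprs was left out of both classes since its protein holds an enzyme of each class.

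The fold changes went with transcript length: across 10010 tested genes the log2 fold change was higher with greater length of the longest annotated transcript (Spearman's rho 0.41, a description, since genes are not replicates). The median log2 fold change was -0.67 over the fifth of genes whose transcripts were shortest and 0.80 over the fifth whose transcripts were longest. The median length was 3341 bases over the synthetases (3065.5 over the cytosolic and 3614 over the mitochondrial genes), against 3399 over all genes. Once the dependence on length and GC content was removed, 15 synthetases fell and 3 rose. Fewer of all genes were then called as well, with 2894 lower and 3022 higher, against 3343 and 3333 before. Among the cytosolic genes 7 then fell (median log2 fold change -0.39), and Cars, Farsb, Gars, Mars1, Rars and Wars were no longer called while Aars was (log2 fold change -0.58, adjusted p = 0.0110). Among the mitochondrial genes 8 then fell and 3 rose (median -0.44). Mars2 was called lower at -1.63, against -0.38 before, the lowest value of the family. Its longest transcript, of 11294 bases, is also the longest of the family. Aars2 (-0.44, adjusted p = 0.111) and Wars2 (0.52, 0.0594) lost their calls. Iars2 was then at -0.96, against -0.48 before. Sars2, among the shortest at 1868 bases, was at 1.20, against 0.50. The part of length in the synthetase results was not tested beyond this.

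Counts of 9 synthetases may include reads of a neighbour, since another gene overlaps their last 1000 bases. These 9 include Aars, Farsb, Mars1, Yars, Cars2, Fars2, Iars2 and Vars2. The sources used here do not give the strand setting of the counting, which matters for neighbours on the opposite strand. For Aars the neighbour, Exosc6, lies on the same strand, so strand could not separate their reads. For Mars1 the neighbour is Ddit3, a stress-response transcription factor gene on the opposite strand that shares 68 bases with it and that rose in del (log2 fold change 3.04 ± 0.25). Hars and Hars2 overlap head to head by 198 bases on opposite strands, away from their 3′ ends.

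The lists of other genes around transfer RNA charging differed in how many of their members fell, and each count stands against the 32.6% of all genes lower in del and the 32.5% higher. Of the 3 scaffold genes of the multisynthetase complex 2 fell and 0 rose. Eef1e1, whose protein AIMP3 binds the methionine enzyme, was at 53.5, 51.6 and 45.7 CPM in del and 172, 143 and 161 CPM in fl, a larger difference than that of any enzyme of the complex (log2 fold change -1.66 ± 0.14, adjusted p = 1.34e-05). Aimp2 was at 39.5, 25.1 and 29.7 CPM in del and 42.4, 45.8 and 49.3 CPM in fl (log2 fold change -0.52 ± 0.18, adjusted p = 0.0251). Aimp1 was not called (log2 fold change -0.46 ± 0.29), with values of 258, 311 and 227 CPM in del and 554, 287 and 253 CPM in fl that overlapped. Of 7 synthetase-related genes 3 fell and 0 rose, a share not far from that of all genes: Pstk (log2 fold change -1.57 ± 0.14, adjusted p = 1.33e-05) and Sepsecs (-0.82 ± 0.22, 0.00798), which convert serine on its transfer RNA to selenocysteine, and Dtd2 (-0.91 ± 0.15, 0.000668), which removes wrongly attached amino acids. Aarsd1, an alanine-editing homologue, was not called (0.25 ± 0.13, 0.112).

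On the mitochondrial side, glutamine transfer RNA is charged by Ears2 and then amidated by the complex of Gatb, Gatc and Qrsl1. Gatc fell (log2 fold change -0.42 ± 0.16, adjusted p = 0.0436), while Gatb (-0.29 ± 0.16, 0.143), Qrsl1 (0.31 ± 0.18, 0.149) and Mtfmt (-0.29 ± 0.14, 0.102), the methionyl transfer RNA formyltransferase gene, were not called. Of 9 mitochondrial translation factor genes 3 fell, about the share of all genes (32.6%), and 0 rose, with a list median of 0.10. The 3 were Tufm (-0.64 ± 0.14, 0.00317), whose protein delivers charged transfer RNA to the mitochondrial ribosome, Tsfm (-0.87 ± 0.13, 0.000391), whose protein is its nucleotide exchange factor, and the recycling factor gene Gfm2 (-0.46 ± 0.16, 0.0306). Gfm1 was not called (-0.52 ± 0.27, 0.117), nor were the initiation factor genes Mtif2 (0.54 ± 0.45, 0.312) and Mtif3 (0.42 ± 0.42, 0.404), the highest of the list, named after their values were seen.

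The cytosolic elongation factors, which take charged transfer RNA from the synthetases, all fell: 5 of 5, against 32.6% of all genes, with a list median of -0.83. Eef1a1, which binds the charged transfer RNA, was at 7844 ± 393 CPM in del and 12811 ± 681 CPM in fl (SD, n = 3 each, log2 fold change -0.71 ± 0.11, adjusted p = 0.000393). Its exchange factor genes Eef1b2 (log2 fold change -1.07 ± 0.13, adjusted p = 9.4e-05), Eef1d (-0.84 ± 0.14, 0.000598) and Eef1g (-0.83 ± 0.24, 0.0120) were also lower. Eef1a1 has near-identical processed copies in the genome, so its count is uncertain.

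The amino acid response genes moved both ways. Of 20 listed genes 19 were tested, of which 11 fell (against 32.6% of all genes), 4 rose (against 32.5%) and 4 were not called, with a median log2 fold change of -0.74. Psat1, a serine synthesis enzyme gene, was at 129, 96.2 and 104 CPM in del and 379, 395 and 404 CPM in fl, with the groups far apart. Trib3, a pseudokinase gene that ATF4 induces, was at 8.69, 4.74 and 4.60 CPM in del and 28.9, 30.8 and 30.9 CPM in fl (log2 fold change -2.28 ± 0.22, adjusted p = 2.68e-05). Cebpb was at 79.5, 85.7 and 101 CPM in del and 25.2, 24.4 and 26.8 CPM in fl (log2 fold change 1.80 ± 0.14, adjusted p = 8.23e-06), and Ddit3 at 29.0, 16.6 and 29.5 CPM in del and 3.10, 3.47 and 2.64 CPM in fl (adjusted p = 9.94e-06). Both encode C/EBP family factors, and both were higher in every del library. Atf4 itself, named after its value was seen, was at 610.0 ± 75.4 CPM in del and 840.4 ± 41.2 CPM in fl (SD, n = 3 each, log2 fold change -0.46 ± 0.14, adjusted p = 0.0166).

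**Figure D5:**
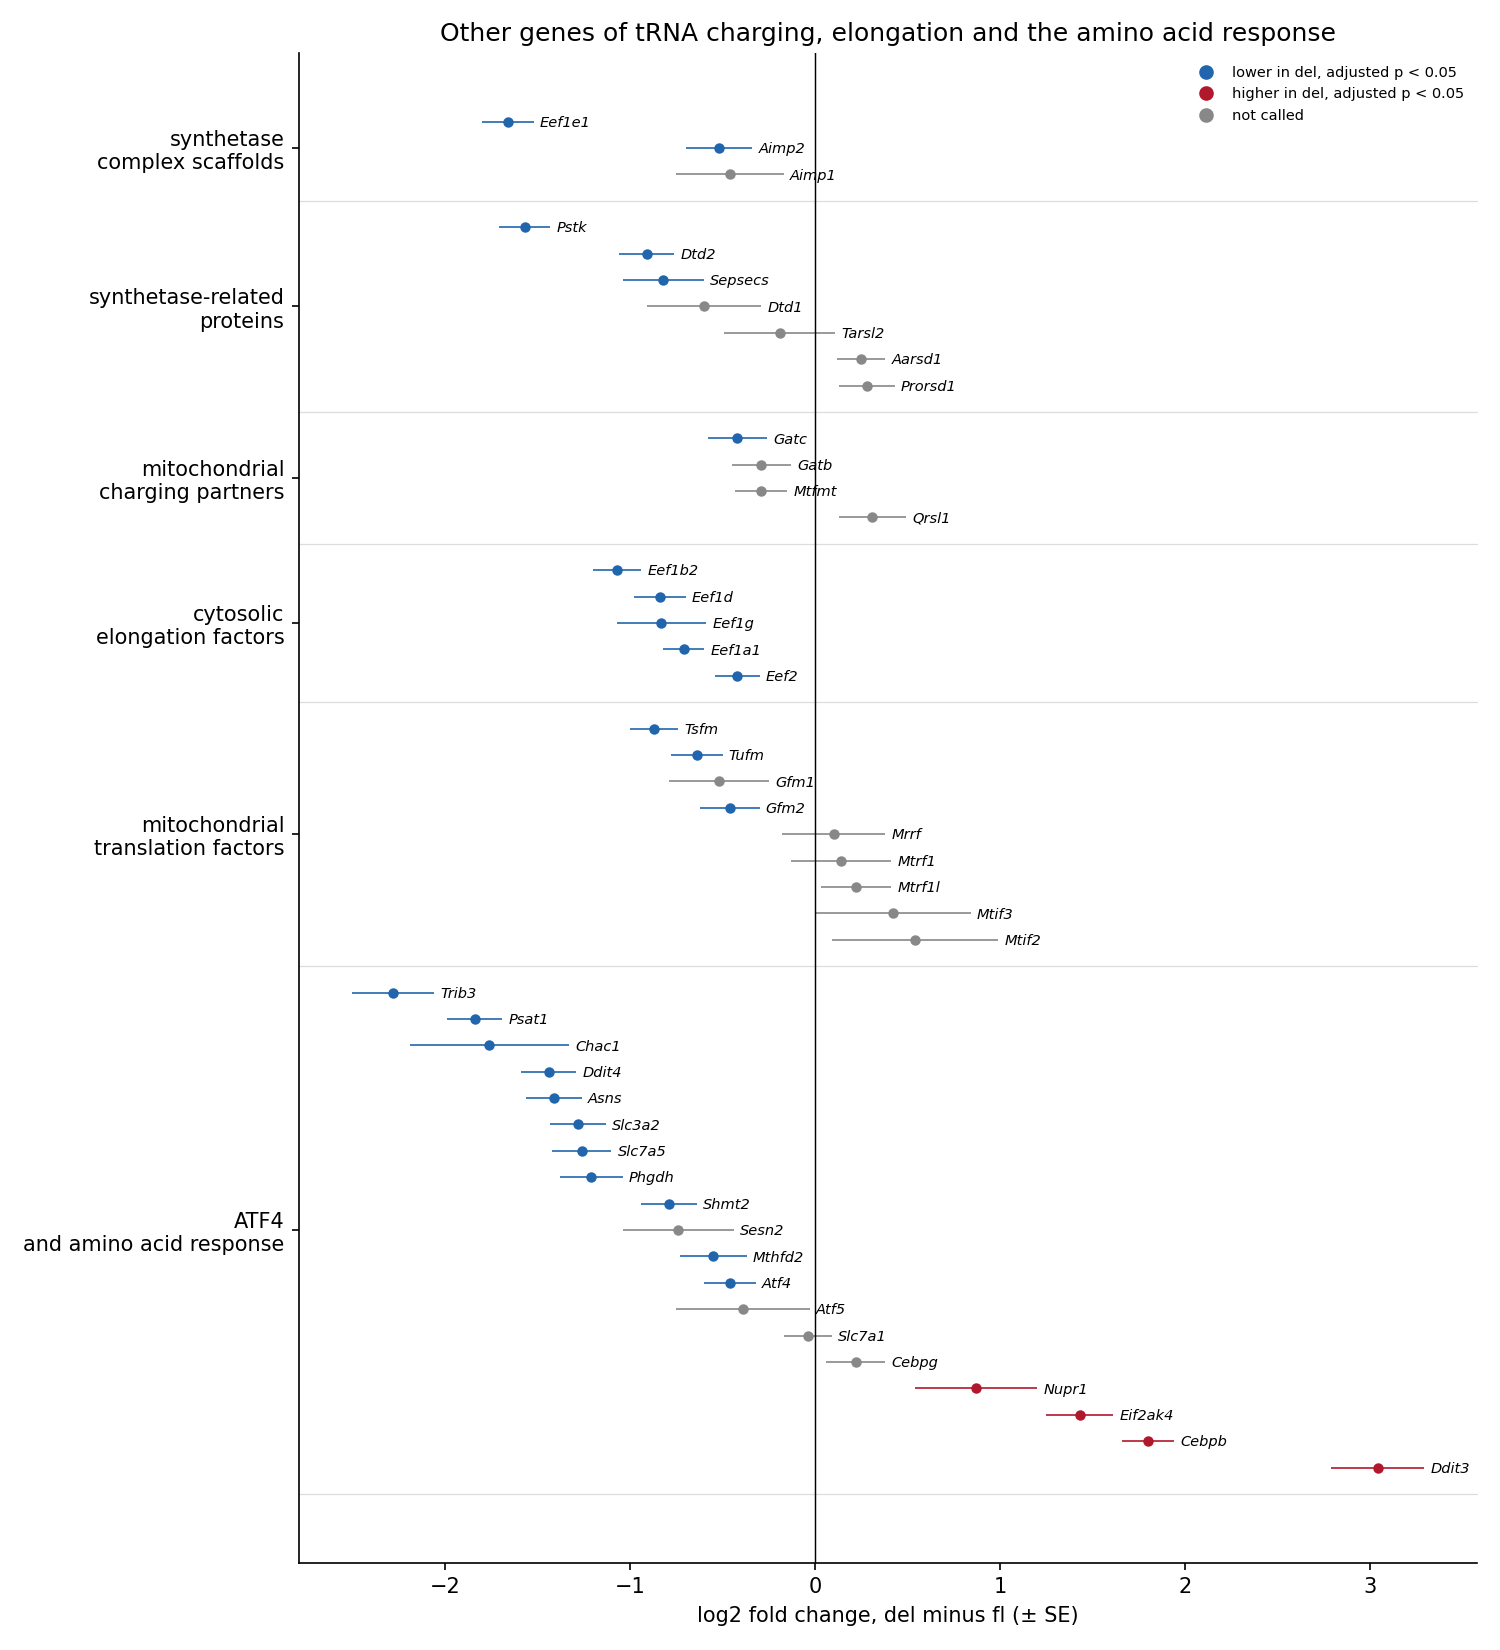
Log2 fold change (del minus fl) with its standard error for the tested genes of 6 lists around tRNA charging, ordered by size within each list, with colour for the call at an adjusted p of 0.05. All 5 cytosolic elongation factors lie below 0, and the amino acid response genes run from Trib3 at -2.28 to Ddit3 at 3.04.

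Promoters were searched, because many of these genes were lower together, for the core that ATF4 and C/EBP factors share (TGATGNAA) and for the E-box that MYC binds (CACGTG), on both strands. The RefSeq promoter table (GRCm38.p6, 250 bases before to 50 bases after the start) matched 27 of the 37 genes, 13 cytosolic and 14 mitochondrial. TGATGNAA was in 5 of the 27 (18.5%), against 2.79% of 8313 tested genes and 4.51% of all 27025 promoters in the table. All 5 were cytosolic genes. CACGTG was in 5 of the 27 (18.5%), namely Aars, Ears2, Farsb, Iars and Tars, against 12.4% of the tested genes and 8.09% of all promoters. The 5 promoters with TGATGNAA are shown on the strand of the gene, with matches to either motif in capitals. A match on the other strand appears as its reverse complement.
Aars: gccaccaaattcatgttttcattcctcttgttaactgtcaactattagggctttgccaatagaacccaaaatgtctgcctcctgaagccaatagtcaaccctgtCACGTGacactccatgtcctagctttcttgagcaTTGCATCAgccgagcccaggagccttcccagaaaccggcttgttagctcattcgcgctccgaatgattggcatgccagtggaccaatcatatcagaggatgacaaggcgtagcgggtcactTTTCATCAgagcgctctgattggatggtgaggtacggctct
Gars: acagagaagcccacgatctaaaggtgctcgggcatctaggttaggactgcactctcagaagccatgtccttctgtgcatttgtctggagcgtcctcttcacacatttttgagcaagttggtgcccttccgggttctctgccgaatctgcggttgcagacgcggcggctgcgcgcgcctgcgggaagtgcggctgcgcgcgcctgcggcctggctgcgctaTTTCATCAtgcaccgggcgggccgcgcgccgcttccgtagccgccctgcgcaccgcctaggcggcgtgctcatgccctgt
Iars: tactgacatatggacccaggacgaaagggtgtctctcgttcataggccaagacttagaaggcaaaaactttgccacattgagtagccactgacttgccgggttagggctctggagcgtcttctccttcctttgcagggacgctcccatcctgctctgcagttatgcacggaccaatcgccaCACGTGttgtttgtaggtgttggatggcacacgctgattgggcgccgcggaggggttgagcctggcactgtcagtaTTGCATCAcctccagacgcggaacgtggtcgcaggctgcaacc
Tars: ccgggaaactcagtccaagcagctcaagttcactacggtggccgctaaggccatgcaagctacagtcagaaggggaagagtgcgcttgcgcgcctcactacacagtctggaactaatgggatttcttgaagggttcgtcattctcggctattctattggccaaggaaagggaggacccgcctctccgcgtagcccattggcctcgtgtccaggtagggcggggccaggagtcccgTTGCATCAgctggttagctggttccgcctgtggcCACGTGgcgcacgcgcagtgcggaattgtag
Yars: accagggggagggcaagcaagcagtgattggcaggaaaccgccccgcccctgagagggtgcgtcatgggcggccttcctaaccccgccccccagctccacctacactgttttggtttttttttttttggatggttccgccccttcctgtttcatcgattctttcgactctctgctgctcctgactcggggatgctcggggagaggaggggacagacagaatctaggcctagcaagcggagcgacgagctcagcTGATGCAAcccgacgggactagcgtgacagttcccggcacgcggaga
The core starts at base -112 and again at base 10 from the start of transcription in Aars, at -30 in Gars, at 8 in Iars, at -15 in Tars and at 4 in Yars. Of these 5 genes, Gars, Iars and Yars fell and Aars and Tars were not called, with a median log2 fold change of -0.53. Of the 8 other cytosolic genes matched, 6 fell, with a median of -0.62. A match does not show that a factor binds there. The windows are chr8:111033592-111033891 for Aars, chr6:55037751-55038050 for Gars, chr13:49681880-49682179 for Iars and chr4:129189653-129189952 for Yars, all on the plus strand, and chr15:11399609-11399908 on the minus strand for Tars.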

How the data were processed

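RNA for 6 libraries (3 del, 3 fl) had been primed with barcoded oligo-dT, pooled and amplified for 12 PCR cycles into strand-specific 3′ libraries, per the labels' protocols. The authors deposited raw read counts per gene. The submitters' processing notes name STAR, HTSeq and mm10 without a role, and the sources used here give no version or setting. Gene numbers were matched to symbols through the RefSeq gene table of GRCm38 (23969 of 24052 matched, and 833 rows carried an accession instead). From the counts, edgeR 4.0.16 under R 4.3.3 was run with filterByExpr, TMM scaling and its quasi-likelihood test (robust, group as sole covariate). Benjamini-Hochberg adjustment was over the 10260 genes tested, with a threshold of 0.05, and every adjusted p given comes from this test unless another is named. Standard errors are the size of the log2 fold change over the square root of F. No replicates were identical. Chi-square values per degree of freedom were 6.93 to 11.3 between del libraries and 10.9 between fl replicates 2 and 3. For fl replicate 1 they were higher, at 26.0 against fl replicate 2 and 28.9 against fl replicate 3. Depth was 2.65 times as high in fl on average, and PCR copies are not independent molecules.

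The test was tried on simulated counts first. Members were given by the symbol rule, and 1 of them, which enters the counts and medians, is not reported here by itself or drawn. Values in every library are given for the 5 largest falls and rises past the threshold in each compartment, for Farsa, Farsb, Eprs, Gars and Kars, and for the 3 members with the highest CPM, and further members' values were added. Up to 4 genes of each other list were named by smallest adjusted p. The family, its symbol rule and the lists were chosen with earlier results of these data known. The 14 alternatives were DESeq2 size factors, upper-quartile factors, the DESeq2 1.42.0 Wald test, no count filter, a filter of 10 CPM in 3 libraries, libraries thinned to 2121796 counts, a replicate block, removal of the trend on length and GC content, and leaving out each library.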

Additional observations from a re-analysis of the deposited data

How the results depend on the processing

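The 14 alternatives gave 514 recomputed log2 fold changes for single synthetases, of which 442 kept their direction and call, 48 lost the call, 13 gained one and 11 changed sign. In every alternative that tested them, 11 genes were called lower (among them Dars, Ears2, Farsa, Iars, Kars, Nars2, Qars, Tars2, Yars and Yars2), and 0 were called higher in all. With upper-quartile factors, which shifted the median of all genes by -0.13, 24 synthetases fell and 2 rose, the latter both mitochondrial. The cytosolic median was then -0.65, and over all genes 3767 fell and 2965 rose. In thinned libraries 19 synthetases fell and 2 rose, the latter both mitochondrial, while 2709 of all genes fell and 2955 rose. With the length and GC trend removed, 7 cytosolic genes fell and the cytosolic median was -0.39, while 2894 of all genes fell and 3022 rose. Leaving out 1 library at a time, 15 to 19 synthetases fell and 2 to 4 rose. Among them 10 to 12 cytosolic genes fell and 0 to 1 rose (median -0.56 to -0.42), and 5 to 8 mitochondrial genes fell and 2 to 3 rose (median -0.51 to -0.24). Over all genes, 2973 to 3233 fell and 3076 to 3275 rose. Values that changed sign were those of Lars (-0.07 with upper-quartile factors, -0.14 with the length and GC trend removed, -0.02 without fl replicate 1), Cars2 (-0.02 thinned), Sars (0.08 with the replicate block, 0.08 without del replicate 3, 0.54 without fl replicate 1) and Fars2 (0.02 with the trend removed, 0 without fl replicate 2). Leaving out 1 library at a time, their values ran from -0.02 to 0.12 (Lars), -0.33 to 0.54 (Sars) and -0.15 to 0 (Fars2). With the trend removed, Eprs (-0.31) and Hars (0.07) also changed sign. The cause was not tested. Deviations of same-numbered del and fl libraries correlated at 0.08, -0.04 and -0.02, and those of differently numbered libraries at -0.16 to 0.19. No pairing by number was thus seen, but these values cannot show whether the libraries were prepared in pairs. With the replicate number as a block 19 synthetases fell and 3 rose (12 and 0 cytosolic, 7 and 3 mitochondrial), and 3295 of all genes were higher and 3215 lower. The shallowest del library limits the genes with few reads: Pars2 had as few as 8 counts in del and 23 in fl.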
